A study of Homo sapiens with 12 samples.

Results

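The genes for the proteins of the mitochondrial ribosome were followed through an insulin time course in HepG2, an established line of human hepatocellular carcinoma cells. They were taken as every gene of the count table whose symbol is MRPL or MRPS, a number and at most 1 further letter. This gave 77 of the 26364 genes counted, of which 48 carry the prefix of the large subunit (MRPL) and 29 that of the small subunit (MRPS). They lie on 21 chromosomes, with 8 members each on chromosomes 1 and 2. RNA-seq covered 5 times after insulin (0, 5, 10, 30 and 240 min), each in duplicate (2 libraries), and a further library was made by chromatin immunoprecipitation (ChIP) of the insulin receptor (IR). The labels give EMEM with 10% FBS for growth. The treatment label of every RNA-seq library, also of those at 0 min, names EMEM for 16 h, BSA, 3 nM insulin and 5 min, so the times were taken from the titles, and the insulin dose of the time course is left unstated. The IR ChIP carries a treatment label with insulin and BSA for 2 days, a washout of 30 min and stimulation with 3 nM insulin, for an unstated time. HepG2 is a single tumour-derived line. The study's methods call the RNA-seq samples biologically independent and the experiment was done once, so p-values measure the spread between libraries of that 1 experiment.

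Mitochondria keep their own ribosomes, which make the few proteins encoded in mitochondrial DNA, all of them core subunits of the oxidative phosphorylation complexes. The ribosomal RNAs come from mitochondrial DNA, whereas each ribosomal protein is encoded in the nucleus, made in the cytosol and imported. The small subunit binds the mRNA and decodes it, and the large subunit forms the peptide bonds. About the members it is known which have a counterpart in bacterial ribosomes (called conserved below) and which are found in mitochondria and not in bacteria (called mitochondria-specific). The symbols do not fully match the assembled particle: MRPS18A and MRPS30 sit in the large subunit, and MRPS36 is now known as a part of the alpha-ketoglutarate dehydrogenase complex. Promoters of nuclear genes for mitochondrial proteins are known for sites of NRF1 and of ETS family factors such as GABP.

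The 200 bases before and 30 bases after the gene start, read from hg19 along the gene's strand, were searched on both strands for 4 short strings. These were GCATGCGC for NRF1, CCGGAAG for ETS factors, AAGATGGC for YY1 and GGGCGGGG for SP1. The ETS string occurred in 25 of the 77 windows (32.5%), against 14.3% of the windows of 13853 genes, those tested below plus MRPS24. The NRF1 string was present in 8 windows (10.4%, against 4.56%), the YY1 string in 6 (7.79%, against 2.58%) and the SP1 string in 26 (33.8%, against 33.2%). The median GC content of the windows was 60% for the members and 64.3% for all these genes. A match is a string of letters and not a shown site. Because gene starts are those of the outermost transcript in the authors' tables, other starts of a gene were not searched.

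The windows of 7 members are printed, chosen from members with a peak over their start and members whose RNA rose at 240 min. Matches are in capitals, whichever string matched. MRPL24, MRPS26, MRPL54 and MRPL19 have an IR peak over their start, and MRPS26 and MRPL19 also rose. The windows of MRPL24 and MRPS26 lie within their peaks. Those of MRPL54 and MRPL19 begin before their peaks, which start at chr19:3762539 and chr2:75873815. MRPL17, MRPL20 and MRPS34 rose, each with 2 or more NRF1 or ETS matches.
MRPL24, chr1:156710894-156711123, minus strand: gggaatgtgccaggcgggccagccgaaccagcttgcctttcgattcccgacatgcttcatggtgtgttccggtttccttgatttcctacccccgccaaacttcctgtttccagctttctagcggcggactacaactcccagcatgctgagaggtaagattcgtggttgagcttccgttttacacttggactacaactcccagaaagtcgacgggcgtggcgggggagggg
MRPS26, chr20:3026475-3026704, plus strand: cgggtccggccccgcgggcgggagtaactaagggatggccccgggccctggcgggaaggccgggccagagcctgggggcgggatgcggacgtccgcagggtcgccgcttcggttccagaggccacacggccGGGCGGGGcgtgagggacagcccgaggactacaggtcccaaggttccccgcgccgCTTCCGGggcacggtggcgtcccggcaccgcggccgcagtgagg
MRPL54, chr19:3762465-3762694, plus strand: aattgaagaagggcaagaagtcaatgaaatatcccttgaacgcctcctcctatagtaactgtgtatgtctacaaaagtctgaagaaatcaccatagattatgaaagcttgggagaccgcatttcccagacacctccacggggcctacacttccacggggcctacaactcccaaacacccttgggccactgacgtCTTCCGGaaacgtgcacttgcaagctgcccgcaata
MRPL19, chr2:75873709-75873938, plus strand: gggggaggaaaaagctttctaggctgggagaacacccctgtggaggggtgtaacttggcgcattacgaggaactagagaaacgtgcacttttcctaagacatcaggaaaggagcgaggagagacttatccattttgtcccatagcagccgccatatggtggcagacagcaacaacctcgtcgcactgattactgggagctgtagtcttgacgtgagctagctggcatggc
MRPL17, chr11:6704603-6704832, minus strand: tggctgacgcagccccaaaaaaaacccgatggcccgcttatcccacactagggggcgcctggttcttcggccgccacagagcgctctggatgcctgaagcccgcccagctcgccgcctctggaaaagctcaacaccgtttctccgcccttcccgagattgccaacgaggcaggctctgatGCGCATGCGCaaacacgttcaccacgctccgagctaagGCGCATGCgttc
MRPL20, chr1:1342664-1342893, minus strand: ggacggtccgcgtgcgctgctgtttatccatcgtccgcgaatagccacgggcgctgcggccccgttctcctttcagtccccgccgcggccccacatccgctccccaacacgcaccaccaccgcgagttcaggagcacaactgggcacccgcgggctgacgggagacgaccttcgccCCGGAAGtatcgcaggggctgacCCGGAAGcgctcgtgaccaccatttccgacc
MRPS34, chr16:1823111-1823340, minus strand: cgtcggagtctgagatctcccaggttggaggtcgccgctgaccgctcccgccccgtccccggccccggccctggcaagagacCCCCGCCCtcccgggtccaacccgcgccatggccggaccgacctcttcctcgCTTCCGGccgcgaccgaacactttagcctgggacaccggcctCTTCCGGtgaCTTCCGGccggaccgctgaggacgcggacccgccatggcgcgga

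MRPL24 and MRPL19 hold none of the 4 strings in these windows. MRPS26 holds 1 ETS and 1 SP1 match, and MRPL54 holds 1 ETS match 6 bases before its start. MRPS34 holds 3 ETS matches in its window, at 66, 24 and 14 bases before the start. MRPL17 holds NRF1 matches on both strands that begin 20 and 18 bases before the start and overlap, and another that begins 18 bases after it. The ETS string was found in 6 of the 16 members that rose at 240 min (37.5%), in 2 of the 3 that fell and in 17 of the 58 others (29.3%). The other strings were less frequent in the 16 than in the 58. NRF1 matched in 1 (6.25%) against 6 (10.3%), YY1 in 0 against 6 (10.3%) and SP1 in 3 (18.8%) against 22 (37.9%). Of the 3 that fell, 1 held the NRF1 string, 0 the YY1 string and 1 the SP1 string. These differences were not tested. MRPL10, which fell, holds NRF1 and ETS matches as well, and its window is not printed.

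Gene counts summed to 18347109 to 45005769 per library, and the 92 ERCC spike-in rows took a further 1.59% to 2.36%. Counts of the 2 libraries of a time disagreed beyond counting error (chi-square over its degrees of freedom 2.80 to 6.30), and each was used as its own sample. Hepatocyte markers were abundant, with ALB at 15796 to 22258 TPM (the authors' measure scaled for transcript length and library size). Among 8 markers of other cell types, PTPRC and DCN were listed at 0 in every library. CD68 at 48.7 to 60.3 TPM and ACTA2 at 60.4 to 95.8 TPM were the exceptions among low values.

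Per length, the members ranged from 20.3 to 316 TPM at 0 min. The median member stood at 61.2 TPM at 0 min, with 60.9 for the large and 71.9 for the small subunit. The medians over all members and over the small subunit count MRPS24 at 42.6 ± 60.2 TPM. That is a mean of 0 and 85.1 TPM and is not a usable level, as described below. MRPL33, a small conserved protein, was highest at 316 ± 7.75 TPM (mean ± SD, n = 2). MRPL51 followed at 214 ± 7.54, MRPL50 at 207 ± 0.0779 and MRPL18 at 201 ± 7.5 TPM. The steps between the latter 3 were smaller than the SDs of MRPL51 and MRPL18, whereas MRPL33 stood apart by more than the replicate spread. At the low end were MRPL55 with 20.3 ± 2.21, MRPL22 with 22.7 ± 2.14, MRPL57 with 24 ± 0.453 and MRPS25 with 24.6 ± 0.498 TPM, and the 2 libraries of each neighbour in this order overlapped.

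MRPS24, a conserved protein of the small subunit, was the member without a usable count. Its counts were 0 or 1 in all 10 libraries, so it failed the filter on low counts and 76 members were tested. The gene lies wholly, on the same strand, inside the read-through gene URGCP-MRPS24. In the authors' StringTie abundances MRPS24 stood at 85.1 TPM in 0 min replicate 2, 90.8 in 10 min replicate 1 and 78.9 in 240 min replicate 1, and was listed at 0 in the other 7 libraries. In those 7 libraries URGCP-MRPS24 was listed at 71.4 to 84.5 TPM, and in the 3 others at 0, 0 and 0.39. The sum of both entries ranged from 71.4 to 90.8 TPM. Thus the StringTie entry of the pair changed between libraries, and neither MRPS24 value is read as a change with time. MRPS6 also shares its strand with a gene inside it, SLC5A3, over 47.1% of its length, and its count is uncertain. The further counted genes, MRPL42P5, MRPL45P2 and MRPS31P5, carry the names of copies of members, so the counts of MRPL42, MRPL45 and MRPS31 are uncertain where reads match both.

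The comparison of 240 min with 0 min asked which members had changed after hours of insulin. In the edgeR quasi-likelihood fit, with p-values adjusted by Benjamini-Hochberg over 13852 genes, 16 of the 76 members (21.1%) rose and 3 (3.95%) fell at an adjusted p under 0.05. Among all genes tested, 20.6% rose and 20.4% fell. The share of risers was therefore close to the background, and the share of fallers was below it, a difference that was not tested. The changes were small, between -0.22 and 0.46 on the log2 scale, and 47 members lay above 0 and 29 below. The median log2 fold change was 0.053 over all members, against -0.003 over all genes. When libraries were scaled by their ERCC counts instead, no member passed the edgeR test in either direction (0 higher and 0 lower at an unadjusted p under 0.05), and the members' median turned to -0.068 with a median over all genes of -0.12. Fewer members rose without 0 min replicate 2 or without 240 min replicate 1. Calls over all genes in those fits are not set beside them, so a loss particular to the members cannot be told. Under ERCC scaling 331 of the 13852 genes rose and 728 fell, and all directions given below for 240 min are relative to the other genes of the library. The ERCC share was 2.36% in 10 min replicate 2 and 1.59% to 1.91% in the other libraries. That library enters the estimate of spread shared by all 10 libraries, and its part in the loss of calls under ERCC scaling was not tested. In bulk RNA, fewer cells expressing a gene and less RNA per cell cannot be told apart. Of the marker lists, 1 of 8 hepatocyte markers (HNF4A) rose and 1 of 5 tested markers of other cell types (ACTA2) fell at 240 min. The hepatocyte list summed to 46009 and 46451 TPM (0 min) and to 37607 and 46633 TPM (240 min). The other list summed to 134 and 137 TPM (0 min) and to 120.2 and 128 TPM (240 min), and the part of these markers in the members' changes was not tested.

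**Figure D1:**
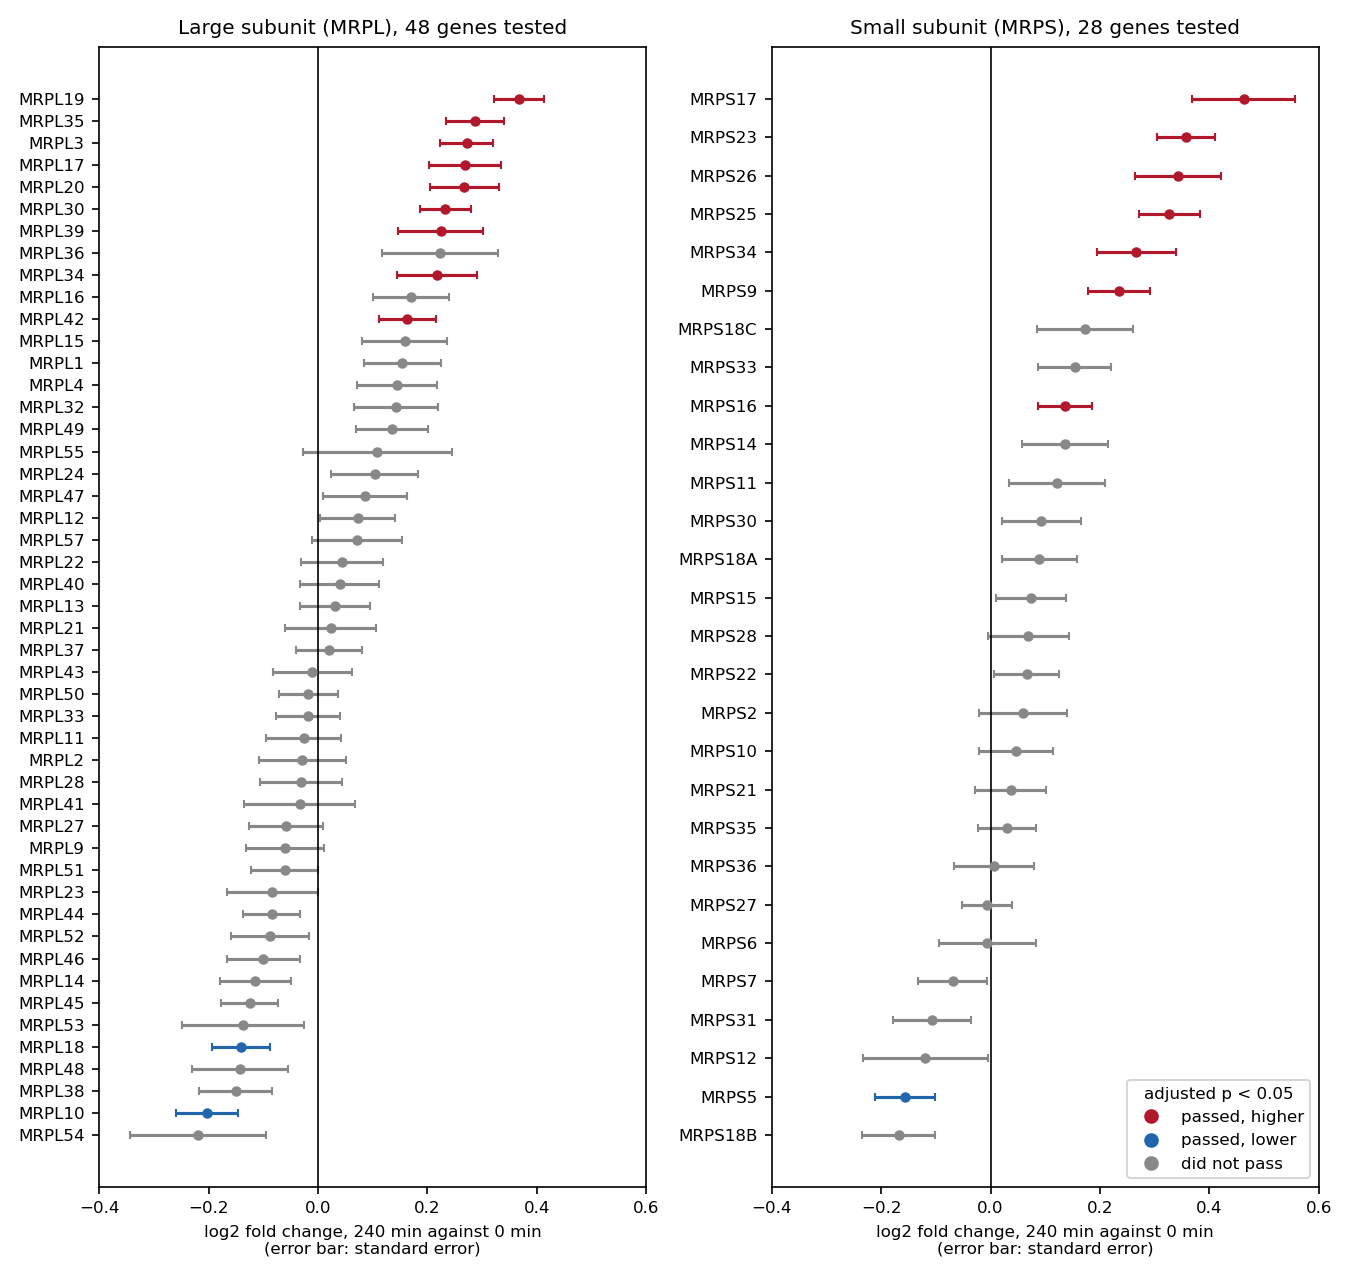
Log2 fold change of each tested member at 240 min against 0 min (x axis, point with its standard error, from edgeR), for the large subunit (left, 48 genes) and the small subunit (right, 28 genes), ordered by size. Red points passed the test as higher (9 large, 7 small) and blue points as lower (2 large, 1 small), and the largest change is 0.46 (MRPS17). Values are relative to TMM scaling, and with ERCC scaling none passed.

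In the large subunit 9 of 48 genes rose (18.8%) and 2 fell (4.17%), with a median of 0.027 that turned to -0.095 with ERCC scaling and to -0.030 without 0 min replicate 2. In the small subunit 7 of 28 rose (25%) and 1 fell (3.57%), with a median of 0.072 that turned to -0.047 with ERCC scaling. Sorting MRPS18A and MRPS30 with the large subunit and leaving MRPS36 out gave 9 and 2 of 50, and 7 and 1 of 25. MRPS18A differed by 0.09 (adjusted p = 0.323), MRPS30 by 0.09 (adjusted p = 0.323) and MRPS36 by 0.01 (adjusted p = 0.952), and none of them passed. Of the conserved proteins, 10 of 43 rose and 3 fell with a median of 0.074. Of the mitochondria-specific ones, 6 of 29 rose and 0 fell, with a median of -0.006 and 3 with an unadjusted p under 0.05 on the lower side. MRPL55, MRPL57, MRPS28 and MRPS36 were counted in neither class. They differed by 0.11, 0.07, 0.07 and 0.01, and none of them passed.

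MRPL19, a conserved protein of the large subunit, had the lowest p-value among the members. Its level was 166 and 165 CPM (counts relative to the TMM-scaled library size) at 0 min, 169 to 179.8 in the 6 libraries from 5 to 30 min, and 214 and 213 at 240 min. Both 240 min values stood above all others, and against 0 min they differed by a log2 fold change of 0.37 (SE 0.046, 1.29-fold, adjusted p = 3.40e-06). The next largest log2 fold change in the large subunit was that of MRPL35, also conserved, with 62.1 and 61 CPM at 0 min against 76.8 and 73 at 240 min, without overlap (log2 0.29, adjusted p = 0.000265). MRPL3, a conserved protein close to the catalytic centre, stood at 109 and 103 CPM at 0 min and at 129.6 and 126 at 240 min (log2 0.27, adjusted p = 0.000172). MRPL17, which lies near the exit of the peptide tunnel, went from 30.4 and 28.8 CPM to 36.5 and 34.4 (log2 0.27, adjusted p = 0.00284). MRPL20, whose bacterial counterpart binds the rRNA early in assembly, went from 29.2 and 30.8 CPM to 35.8 and 36.9 (log2 0.27, adjusted p = 0.00211). In these 4 genes, too, each 240 min library lay above all 8 earlier ones, and MRPL17 lost its call without 0 min replicate 2 or 240 min replicate 1. MRPL30, MRPL39, MRPL34 and MRPL42 rose by 0.16 to 0.23, and of these MRPL30 kept its call in all fits that left out 1 library. MRPL39 lost its call without 0 min replicate 2 or 240 min replicate 1, MRPL34 without 240 min replicate 1 or either 0 min library, and MRPL42 without 0 min replicate 2 or either 240 min library. None of these 3 passed with DESeq2.

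The largest rise in log2 terms was that of MRPS17, a conserved protein that binds the rRNA of the small subunit. Its level was 13.8 and 12.9 CPM at 0 min, 12.7 to 14.6 from 5 to 30 min and 19.1 and 17.2 at 240 min (log2 0.46, SE 0.094, 1.38-fold, adjusted p = 0.000586). Both 240 min libraries were above the other 8. The next 3 genes of the small subunit were mitochondria-specific. MRPS23 stood at 60.1 and 58.2 CPM at 0 min, 54.9 to 61.1 from 5 to 30 min and 75.1 and 76.3 at 240 min (log2 0.36, adjusted p = 2.90e-05). MRPS25 stood at 47.9 and 46.3 CPM at 0 min, 44.6 to 48.1 between and 58.9 and 58.9 at 240 min (log2 0.33, adjusted p = 0.00011), so that replicates lay close together and apart from the earlier times. MRPS26 was more spread before 240 min, at 40.3 and 34.8 CPM at 0 min and 30.6 to 38.4 from 5 to 30 min, and reached 46.8 and 47.5 CPM (log2 0.34, adjusted p = 0.00178). It lost its call without 0 min replicate 2. MRPS34, another mitochondria-specific protein, went from 29.4 and 29.5 CPM to 37.8 and 32.7 (log2 0.27, adjusted p = 0.00614), and lost its call without 240 min replicate 1, with a log2 fold change of 0.15. MRPS9 and MRPS16, both conserved, rose by 0.24 and 0.14. MRPS9 lost its call without 240 min replicate 1, and MRPS16 did so in 4 of the 10 fits without 1 library and with DESeq2.

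All 3 members that fell are conserved. MRPL10, which anchors the stalk where translation factors bind, stood at 61.8 and 59.2 CPM at 0 min, 56.7 to 61.7 from 5 to 30 min and 53 and 51.8 at 240 min (log2 -0.20, SE 0.057, adjusted p = 0.00767). Both late values were the lowest of the 10, and the call was lost without 0 min replicate 1. Its stalk partner MRPL12 was at 66.2 and 61 CPM at 0 min against 63.4 and 70 at 240 min, overlapping (log2 0.07, adjusted p = 0.423). MRPS5, which lies at the mRNA entry, went from 74.5 and 74.7 CPM to 67.3 and 66.6 (log2 -0.16, adjusted p = 0.0299). MRPL18 went from 82.2 and 76.7 CPM to 72.3 and 71.3 (log2 -0.14, adjusted p = 0.039), but the lower 5 min library, at 70.5 CPM, was below both late values. Fewer members fell without 0 min replicate 1, either 10 min library or either 240 min library. More fell without either 5 min library. MRPL10 passed in 11 of the 12 other settings that kept all libraries, MRPS5 in 5 and MRPL18 in 4.

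**Figure D2:**
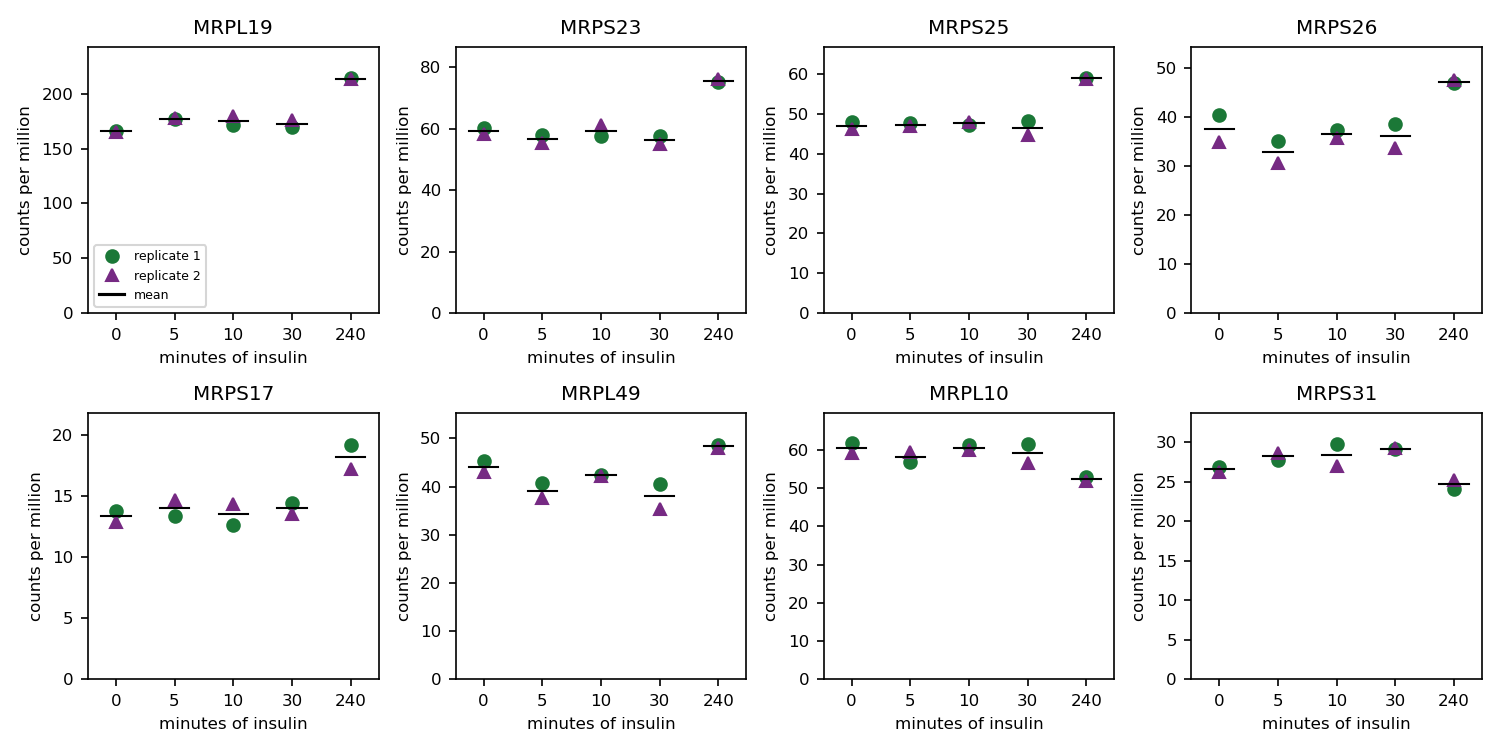
Levels of 8 members in CPM (y axis, from 0) at each time of insulin (x axis, not to scale), with replicate 1 as circles, replicate 2 as triangles and their mean as a line. MRPL19, MRPS23, MRPS25, MRPS26, MRPS17 and MRPL49 have both 240 min libraries above the other 8, and MRPL10 and MRPS31 have both below, after TMM scaling. None of them passed with ERCC scaling against 0 min, and MRPL49 and MRPS31 did not pass against 0 min with TMM scaling either.

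Summed over its genes, each subunit was highest at 240 min after TMM scaling, but not after ERCC scaling. The large subunit summed to 2156 and 2059 CPM at 0 min, 2029 to 2145 CPM in the 6 libraries from 5 to 30 min, and 2229 and 2200.1 CPM at 240 min. The small subunit summed to 1277 and 1222 CPM at 0 min, 1198 to 1275 CPM from 5 to 30 min and 1324 and 1309.7 CPM at 240 min. After scaling by ERCC counts the 240 min libraries no longer stood together, at 2393 and 2092 for the large subunit, one above and one below both 0 min values of 2367 and 2264. The lowest ERCC-scaled sum of the large subunit was that of 10 min replicate 2, at 1594, beside 2122 in 10 min replicate 1. The counts of the large subunit divided by those of the small one gave 1.68 to 1.70 in all 10 libraries, which no scaling between libraries can alter. The members took 0.341% and 0.325% of the gene counts at 0 min and 0.358% and 0.364% at 240 min.

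**Figure D3:**
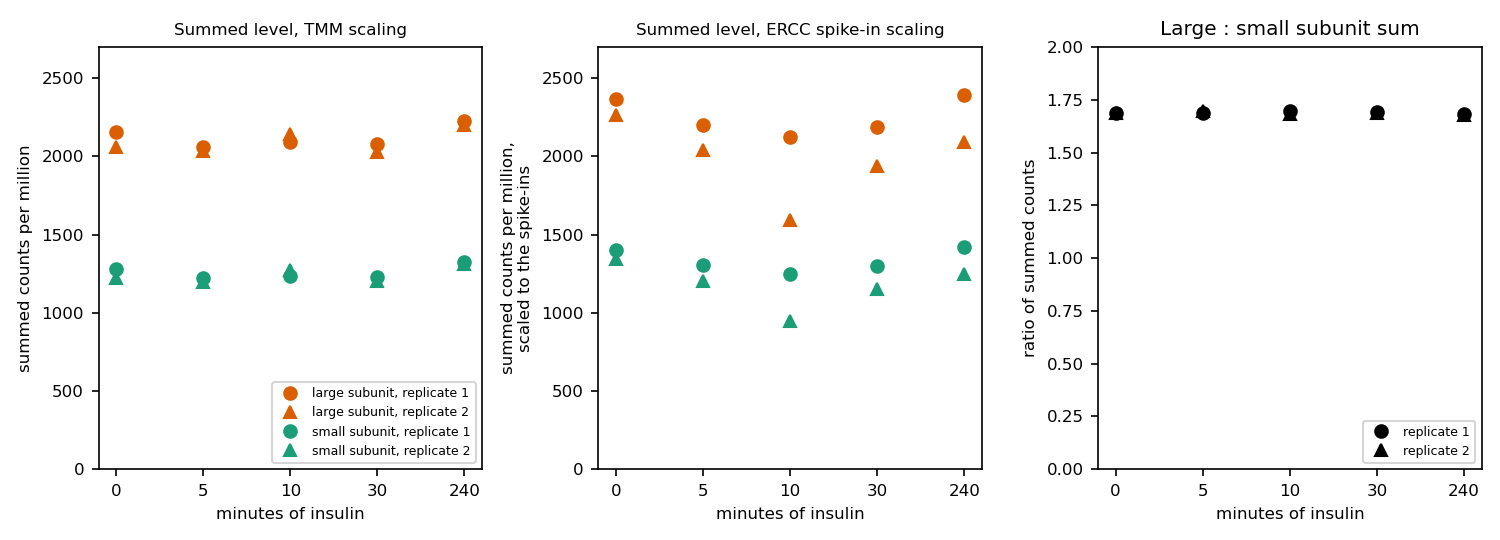
Summed CPM of the members of each subunit per library and time, after TMM scaling (left) and scaled to the ERCC spike-ins (middle), and the ratio of large to small subunit counts (right). The late libraries are the highest on the left, part from each other in the middle (2393 and 2092 for the large subunit), and the ratio stays between 1.68 and 1.70. The lowest points in the middle are those of 10 min replicate 2 (1594 for the large subunit).

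At 5 min no member passed the test by edgeR's quasi-likelihood test, where 0% of all genes rose and 0% fell. On the unadjusted scale, 16 of 76 members (21.1%) were lower and 3 (3.95%) higher at p under 0.05, against 7.5% and 6.76% of all genes. The median was -0.053 over all members, -0.086 in the large and -0.023 in the small subunit, and DESeq2 and limma each called 0 members. MRPL52, a mitochondria-specific protein of the large subunit, had the lowest p, with 32.2 and 30.3 CPM at 0 min and 26.7 and 25.8 at 5 min (log2 -0.24, adjusted p = 0.243). MRPS12, a conserved protein of the decoding centre, stood at 12.8 and 12.7 CPM and then 11 and 8.18 CPM (log2 -0.39, adjusted p = 0.246). It passed at an adjusted p of 0.044 when no filter on low counts was used. MRPL17 stood at 30.4 and 28.8 CPM and then 26.1 and 24.9 CPM (log2 -0.21, adjusted p = 0.253). In each of these 3 genes the 5 min libraries lay below both 0 min libraries.

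At 10 min and 30 min, too, no member passed. Of all genes, 0.0433% rose and 0.0938% fell at 10 min, and 0.188% rose and 0.144% fell at 30 min. At an unadjusted p under 0.05, 0 members differed at 10 min, where 2.1% of all genes were higher and 3.02% lower. At 30 min 1 member was higher (1.32%) and 4 were lower (5.26%), against 4.22% and 3.91% of all genes. DESeq2 and limma called 0 members at either time. The medians of the members were 0.006 at 10 min and -0.039 at 30 min, against -0.001 and -0.005 over all genes. The lowest p at 10 min were those of MRPS10 (log2 0.12, adjusted p = 0.951), MRPL19 (log2 0.08, adjusted p = 0.956) and MRPS12 (log2 -0.19, adjusted p = 0.962). At 30 min they were those of MRPL49 (log2 -0.21, adjusted p = 0.369), MRPS18B (log2 -0.17, adjusted p = 0.502) and MRPS12 (log2 -0.29, adjusted p = 0.516). All comparisons with 0 min share the same 2 libraries, so their members are not independent evidence of each other.

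The comparison of 240 min with 30 min sets the 30 min libraries in place of those at 0 min. The 0 min libraries entered it through the scaling, the filter and the shared estimate of spread. It shares both 240 min libraries with the comparison against 0 min, so members that rose or fell in both are not independent evidence. Here 19 members (25%) rose and 2 (2.63%) fell, against 19.8% and 18.4% of all genes. In the large subunit 11 rose and 1 fell, and in the small subunit 8 rose and 1 fell. The median was 0.092, with 59 members above 0 and 17 below, against a median of -0.0002 over all genes, and the members' median stayed above 0 at 0.10 with ERCC scaling, where none passed (2 higher and 0 lower at an unadjusted p under 0.05). MRPS23 was at 57.8 and 54.9 CPM at 30 min and 75.1 and 76.3 at 240 min (log2 0.42, SE 0.055, adjusted p = 5.67e-06), with no overlap. MRPS26 rose by 0.38 (adjusted p = 0.000893), MRPS17 by 0.38 (adjusted p = 0.00396) and MRPS25 by 0.34 (adjusted p = 8.35e-05). MRPL49, a mitochondria-specific protein of the large subunit, was at 45.3 and 43 CPM at 0 min, 40.6 and 35.4 at 30 min, then 48.7 and 48 CPM at the last time. Its difference was 0.34 against 30 min (adjusted p = 0.000527) and 0.14 against 0 min (adjusted p = 0.11). MRPS31, mitochondria-specific, was at 29.1 and 29.3 CPM at 30 min and 24.1 and 25.2 at 240 min (log2 -0.25, adjusted p = 0.0103), and fell against 30 min together with MRPL10 (log2 -0.18, adjusted p = 0.0205). At 0 min MRPS31 stood between, at 26.9 and 26.3 CPM. Its difference at 240 min against 0 min was -0.11 and did not pass (adjusted p = 0.24). Fewer members rose without 240 min replicate 1, where neither MRPS31 nor MRPL10 passed. MRPL10 also lost its call without 30 min replicate 1 or 240 min replicate 2, whereas MRPS31 kept it.

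Genes that act with the mitochondrial ribosome were set beside it. Among all genes tested, 20.6% rose and 20.4% fell at 240 min against 0 min, and differences of the lists from these shares were not tested. Of 6 ribosomal proteins that bear other names, 2 rose at 240 min, DAP3 by 0.18 and ICT1 by 0.25, and 0 fell. Of 25 genes for assembly of the mitochondrial ribosome and maturation of its rRNA, 8 rose (32%) and 4 fell (16%), with a median of 0.070. MPV17L2, an assembly factor of the large subunit, went from 6.17 and 5.66 CPM to 12.7 and 12.1 (log2 1.09, adjusted p = 3.63e-07). FTSJ2, a methyltransferase of the large subunit's rRNA, went from 21 and 20.8 CPM to 32.5 and 30.7 (log2 0.60, adjusted p = 6.12e-06). FASTKD2, which binds that rRNA, went from 89.5 and 88 CPM to 129 and 134 (log2 0.57, adjusted p = 2.25e-08). The 3 changes exceeded the largest rise among the members. METTL15, a methyltransferase of the small subunit's rRNA, went from 9.56 and 8.76 CPM to 6.0 and 5.42 (log2 -0.66, adjusted p = 0.000188), and RPUSD4, a pseudouridine synthase of the large subunit's rRNA, fell as well (log2 -0.34, adjusted p = 0.000111). Of 16 mitochondrial translation factors, 4 rose (25%) and 1 fell (6.25%), the last being RMND1 (log2 -0.41, adjusted p = 9.77e-06). Of 10 genes for mitochondrial transcription and RNA stability, 3 rose (30%) and 0 fell.

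Cytosolic ribosomal proteins, the counterparts of the members outside mitochondria, gave other counts in the same comparison: 3 of 78 rose (3.85%) and 31 fell (39.7%), with a median of -0.11. Nuclear subunits of oxidative phosphorylation, most of which assemble with the products of the mitochondrial ribosome, gave 6 of 76 higher (7.89%) and 14 lower (18.4%), with a median of -0.066. At 5 min, where none passed, 37.2% of the cytosolic ribosomal proteins, 31.6% of the oxidative phosphorylation subunits and 21.1% of the members were lower at an unadjusted p under 0.05. Of all genes, 7.5% were lower on that scale. The differences between lists were not tested.

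**Figure D4:**
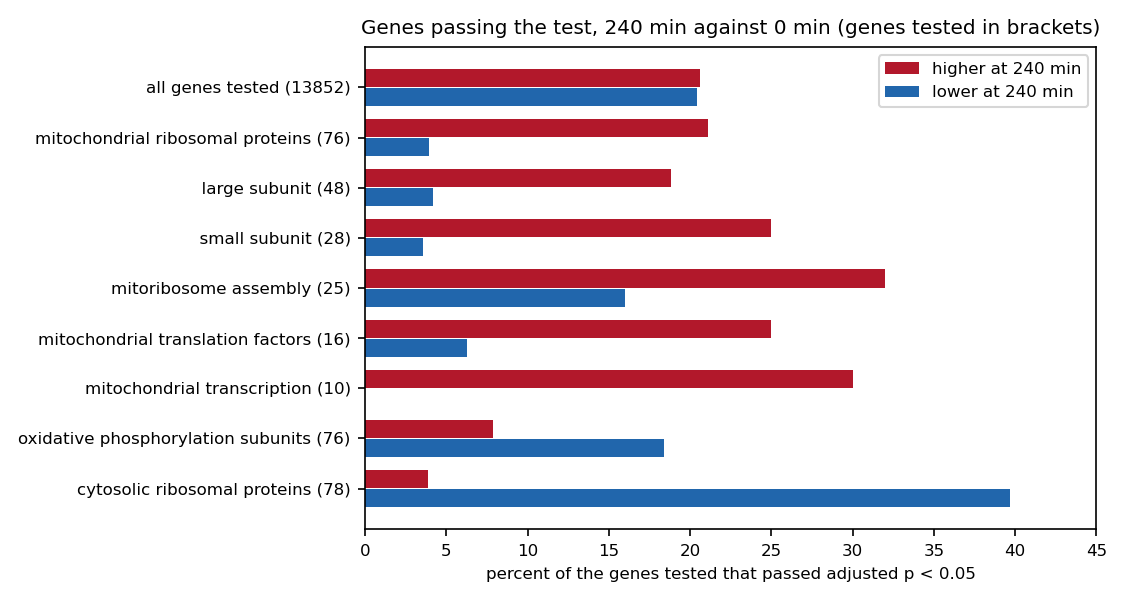
Percent of the tested genes of each list (x axis, from 0) that passed as higher (red) or lower (blue) at 240 min against 0 min, with the number tested in brackets. The members have 21.1% higher and 3.95% lower, the cytosolic ribosomal proteins 3.85% and 39.7%, and all genes 20.6% and 20.4%. Shares follow TMM scaling, and with ERCC scaling none of the members passed.

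The IR ChIP library asked where the receptor was found on chromatin. A peak lay within 5 kb of the gene body in 12 of the 77 members (15.6%), against 15.7% of all 13852 genes tested, so the members as a whole were at the background. The peaks were unequally spread over the subunits, with 11 of 48 genes of the large subunit (22.9%) and 1 of 29 of the small one (3.45%). There is 1 library, so no replicate check could be made and no test of this difference was run. Extending genes by 20 kb gave 11 (22.9%) and 3 (10.3%), against 21.3% of all genes. HOMER's nearest gene gave 6 of 48 (12.5%) and 2 of 29 (6.9%), against 8.58%. With genes extended by 1 kb, within 1 kb of the gene start and with scores above the median, the small subunit stayed at 1 of 29. The large one then had 18.8%, 18.8% and 14.6%, against 14.1%, 12.3% and 8.78% of all genes. The size of the gap therefore depends on how peaks are assigned. The 12 members had 13 peaks, of which 10 covered the member's own start. Scores are those of the authors' peak table, higher for stronger peaks, where 1971 peaks have a median of 79.

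MRPL24, a conserved protein near the peptide exit, had the strongest of these peaks, with a score of 1299 and rank 105 of 1971, at chr1:156710360-156711347 (hg19). It covers the start of MRPL24, an exon and its UTR, and no other gene start. MRPL24 RNA was at 18.7 and 18.3 CPM at 0 min against 19.5 and 20.1 at 240 min, without overlap, and did not pass (log2 0.10, adjusted p = 0.32). The peak at MRPL50 (score 555, chr9:104160833-104161507) also covers the start of ZNF189, from which its centre is 15 bases away, and MRPL50 RNA differed by -0.02 (adjusted p = 0.823). MRPS26 was the 1 member of the small subunit with a peak (score 156, chr20:3026256-3027008), which covers its start and no other. MRPL54 had a peak over its start (score 151, chr19:3762539-3762857) and another (score 48, chr19:3761511-3761993) over the start of APBA3. MRPL54 RNA differed by -0.22 at 240 min and did not pass (adjusted p = 0.17). MRPL11, a protein of the stalk base, had a peak with a score of 135 (chr11:66206206-66206654), and MRPL19 had one with a score of 125 (chr2:75873815-75874238), both over their own start alone.

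Other peaks lay at neighbours or were shared. The peak counted for MRPL34 (score 369, chr19:17419903-17420753) lies over the start of DDA1, with its centre 3851 bases past the start of MRPL34. That of MRPL12 (score 86, chr17:79679007-79679404) lies over the start of SLC25A10, 8805 bases past the start of MRPL12. The peaks at MRPL14 (score 45, chr6:44094862-44095292), MRPL32 (score 40, chr7:42971726-42972016) and MRPL47 (score 35, chr3:179322346-179322785) cover the member's start and that of TMEM63B, PSMA2 and NDUFB5, respectively. MRPL44, whose protein resembles RNase III, had the weakest, with a score of 25 (chr2:224821912-224822304). Of the 12 members with a peak, MRPL19, MRPS26 and MRPL34 rose at 240 min (25%, near the 20.6% of all genes) and 0 fell.

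**Figure D5:**
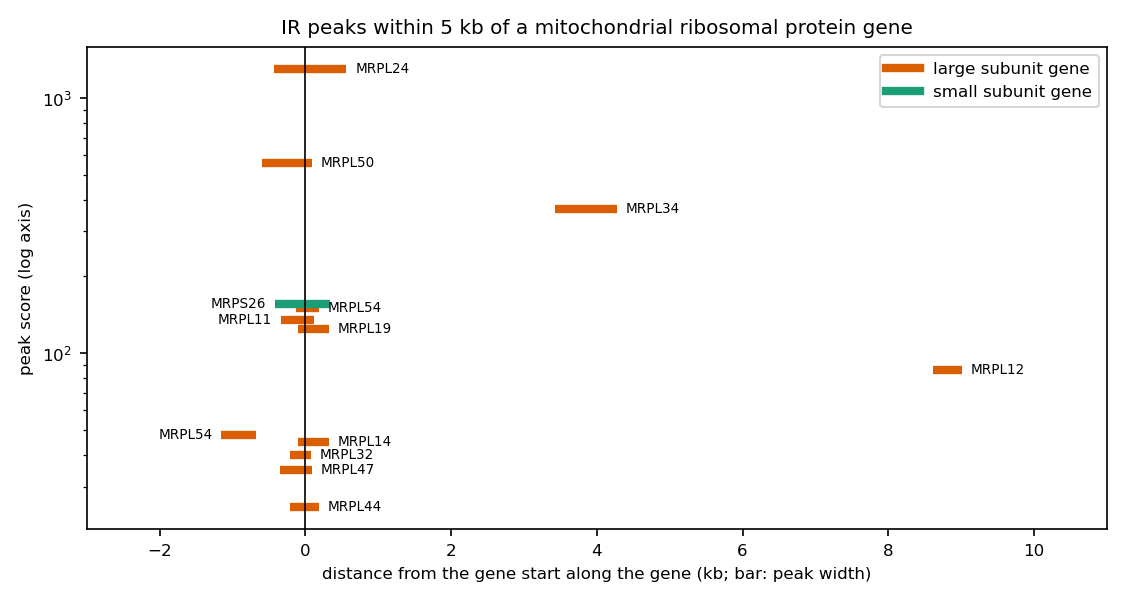
The 13 IR peaks within 5 kb of a member, by the distance of the peak from the gene start along the gene (x axis, kb, each bar as wide as its peak) and by the score (y axis, log scale), with genes of the large subunit in orange and of the small subunit in green. Of the bars, 10 cross the gene start at 0, and those of MRPL34, MRPL12 and the weaker of 2 at MRPL54 lie elsewhere.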

How the data were processed

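HepG2 RNA-seq at 5 times (2 replicates each) and 1 IR ChIP-seq library were analysed from the authors' files. The authors trimmed single-end reads with Trim Galore 0.6.4, aligned them to hg19 with STAR 2.6.1d, and deposited reverse-stranded featureCounts 1.6.4 counts without normalization. Duplicates were marked, and their removal is not stated. The authors also deposited StringTie abundances in TPM, and a peak table with a score per peak, made with BWA 0.7.17-r1188, MACS2 2.2.7.1 and HOMER. The extraction and treatment labels of the 2 assays look exchanged when set beside the paper's methods. The ChIP input was not used here.

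Counts were tested with edgeR 4.0.16 in R 4.3.3 (TMM, filterByExpr by time, quasi-likelihood F test, 1 model of 10 libraries without a replicate block), with Benjamini-Hochberg adjustment over 13852 genes and a threshold of 0.05. The 92 ERCC rows stayed out of library sizes and tests. CPM are TMM-scaled, and an SE is the log2 fold change over the root of F. The steps were tested on simulated data. Motif strings and peaks were handled in Python 3.11.15 with pandas 2.3.3, gene bodies being those of the StringTie tables, and gene features of GENCODE on GRCh37.

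The members and lists were chosen with earlier results of these data known, so lists are given by counts and medians with no test. Members named are the 10 largest rises and falls at 240 min against 0 min and the 5 each way against 30 min, among those that passed without overlap, the 3 lowest p at the other times, the 4 highest and lowest TPM at 0 min, members with a peak, MRPS24, and MRPS18A, MRPS30 and MRPS36. From the other lists the 3 largest changes each way were named. Any other gene was picked with its values in view. The alternatives were DESeq2 1.42.0, other filters, RLE, upper-quartile and ERCC scaling, only the times compared, a replicate block, limma 3.58.1 on log2 TPM with a pseudocount of 1 or 0.1 and at a mean TPM of at least 1, thinning to 18347109 counts, and each library left out in turn.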

Additional observations from a re-analysis of the deposited data

Results flagged for a closer look

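The change of a member at 240 min was compared with its change at 30 min by the contrast of both times, which tests the difference itself. In this contrast 19 members (25%) were higher and 2 (2.63%) lower at 240 min than at 30 min, against 19.8% and 18.4% of all genes. The largest differences by the naming rule were those of MRPS23 (0.42), MRPS26 (0.38), MRPS17 (0.38), MRPL49 (0.34) and MRPS25 (0.34) upwards, and of MRPS31 (-0.25) and MRPL10 (-0.18) downwards, on the log2 scale. MRPL49 lay below both 0 min libraries at 30 min and above both at 240 min, as its levels above show. MRPS24 had next to no counts but a mean of 25.5 TPM over the 10 libraries in the StringTie tables, which were not part of the main test. This mean joins 3 libraries at 78.9 to 90.8 TPM with 7 listed at 0, and is given for that reason only.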

How the results depend on the processing

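Each of the 40 called values of single members kept its sign under the 12 alternatives and the 10 fits without 1 library. Against 0 min, 12 of the 16 members that rose and 1 of the 3 that fell at 240 min passed under every alternative other than ERCC scaling, and 8 of the 12 also passed without each library in turn. With ERCC scaling 0 members rose and 0 fell at 240 min, against 0 min and against 30 min. The number that fell against 0 min was 1 with DESeq2, with upper-quartile normalization and with limma on each of the 3 TPM scales, and the cause was not tested. Replicate numbers did not pair the libraries, with correlations of same-numbered deviations of -0.12 to 0.13, and with a replicate block 16 members rose and 5 fell. At 5 min 1 member was lower without a filter on low counts.

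Leaving out 1 library gave 10 to 17 members higher and 0 to 5 lower at 240 min against 0 min, with the 10 found without 0 min replicate 2 and without 240 min replicate 1. The most fell without either 5 min library, and fewer without 240 min replicate 1, 240 min replicate 2 or 0 min replicate 1. Against 30 min the range was 12 to 19 higher and 0 to 2 lower, with 1 lower without 30 min replicate 1 or 240 min replicate 2.

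The medians moved by more than the SD between replicates (0.030 for the large and 0.027 for the small subunit) as follows. With ERCC scaling the large subunit's median was -0.095 at 240 min, -0.18 at 30 min, -0.33 at 10 min and -0.17 at 5 min, and the small one's -0.047, -0.15, -0.32 and -0.11, while all genes stood at -0.12, -0.13, -0.33 and -0.083. On the TPM scales the large subunit's median at 240 min was 0.062, 0.063 and 0.062 against 0 min and 0.11, 0.12 and 0.11 against 30 min, and the small one's 0.11, 0.11 and 0.11 against 0 min. The small subunit's median was 0.099 with upper-quartile normalization at 240 min and -0.050 with thinning at 30 min. Without 1 library, the large subunit's median ran from -0.030 to 0.067 at 240 min against 0 min, from -0.075 to -0.0077 at 30 min, from -0.028 to 0.037 at 10 min, from -0.11 to -0.047 at 5 min and from 0.025 to 0.13 against 30 min. That of the small subunit ran from 0.050 to 0.11, -0.049 to -0.0030, -0.025 to 0.037, -0.064 to -0.0090 and 0.090 to 0.13 in the same order. The sign of the large subunit's median at 240 min therefore rests on 0 min replicate 2, without which it was -0.030.

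The number of members with an IR peak ran from 8 to 14 of 77 under the 5 other rules, near the share of all genes under each. With scores above the median it was 10.4% against 8.78% of all genes, and with HOMER's nearest gene 10.4% against 8.58%. Within 1 kb of the gene start it was 13.0% against 12.3%. With genes extended by 1 kb it was 13.0% against 14.1%, and by 20 kb 18.2% against 21.3%. With 2 libraries a time, the smallest change that passed at 240 min against 0 min was 0.14 on the log2 scale (MRPS16). This is not a limit above which changes passed. By edgeR, MRPL36 at 0.22 (adjusted p = 0.103) and MRPL54 at -0.22 (adjusted p = 0.17) did not pass.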
